A study of Mus musculus with 9 samples.

Results

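RNA of 10 genes for subunits of the Polycomb repressive complexes was followed across mouse embryonic stem cells sorted by Myc level. The genes were Ezh2, Eed, Suz12, Jarid2, Mtf2, Ring1, Rnf2, Cbx7, Pcgf6 and Kdm2b. They were chosen by symbol, and all 10 of 10 were found among the 13499 genes of the authors' table. The cells were C57BL/6 mouse embryonic stem (ES) cells, cultured cells that can form all tissues of the embryo, grown on gelatine in a medium with LIF. A cytometer separated them into populations named High, Medium and Low by their fluorescence from GFP-Myc or EYFP. Each population had 3 biological replicates, which gave 9 libraries of total RNA read as single-end 61-nt reads. Which of these reporters a given library carried, and in how many clones or lines, is not stated in the labels. Myc RNA, measured as a check of the labels, followed the sort. Its signal was 112, 101 and 106 in High, 70.0, 65.5 and 65.8 in Medium and 26.3, 27.6 and 24.2 in Low, in the order of replicates 1 to 3.

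Polycomb complexes keep developmental genes silent. Polycomb repressive complex 2 (PRC2) methylates lysine 27 of histone H3 through a core of Ezh2, Eed and Suz12, while Polycomb repressive complex 1 (PRC1) attaches ubiquitin to histone H2A through Ring1 or Rnf2. In ES cells these marks lie over CpG-rich promoters of silent lineage genes, and accessory subunits such as Jarid2, Mtf2 and Kdm2b help to bring the complexes there.

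The deposited normalized counts are called signal here, and their scale is close to that of CPM (counts divided by the library's total and multiplied by a constant). Whole reads recovered from them numbered 11114936 to 16755566 per library. Every member had at least 155 reads in each library, and the member with the fewest was Ring1. Differences were tested with limma on log2(signal + 1 CPM) with all 9 libraries in the fit, with p-values adjusted by the Benjamini-Hochberg method across 13499 genes and a threshold of 0.05. Fold changes on this scale understate the change of low genes, and do so strongly where the signal is near or under 1. Because the populations are bulk samples, fewer cells of a type and less RNA per cell cannot be told apart. Long transcripts were under-represented in some libraries, most in Low replicates 2 and 3. The median log2 deviation of genes with transcripts of at least 4729.5 nt, minus that of genes of at most 2100 nt, was -0.59 and -0.27 in those libraries, against 0.28 in Low replicate 1, -0.05 to 0.30 in Medium and -0.07 to 0.25 in High. Values corrected for transcript length are given where they differ most.

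The promoters of the core PRC2 genes and of the members with the largest differences are shown here, because the results below turn on these genes. Each line is the 250 bases before a RefSeq transcript start on GRCm38.p6, written 5′ to 3′ along the gene's own strand: Eed at chr7:89980977-89981226 on the minus strand, Jarid2 at chr13:44730524-44730773 on the plus strand, Kdm2b at chr5:122989100-122989349 on the minus strand, Ezh2 at chr6:47595031-47595280 on the minus strand and Suz12 at chr11:79992856-79993105 on the plus strand. Jarid2 and Kdm2b have further RefSeq starts, which are not printed. Capitals mark matches on either strand to the motifs searched.
Eed: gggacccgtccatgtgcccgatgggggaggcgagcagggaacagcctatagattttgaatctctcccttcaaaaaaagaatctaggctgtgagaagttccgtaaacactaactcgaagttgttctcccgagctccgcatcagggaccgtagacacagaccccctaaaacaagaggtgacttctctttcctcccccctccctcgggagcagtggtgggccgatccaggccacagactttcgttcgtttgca
Jarid2: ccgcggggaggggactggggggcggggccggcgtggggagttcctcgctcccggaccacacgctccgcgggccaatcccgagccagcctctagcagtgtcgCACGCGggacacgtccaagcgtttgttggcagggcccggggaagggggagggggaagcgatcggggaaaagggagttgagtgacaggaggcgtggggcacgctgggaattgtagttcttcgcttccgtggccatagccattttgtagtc
Kdm2b: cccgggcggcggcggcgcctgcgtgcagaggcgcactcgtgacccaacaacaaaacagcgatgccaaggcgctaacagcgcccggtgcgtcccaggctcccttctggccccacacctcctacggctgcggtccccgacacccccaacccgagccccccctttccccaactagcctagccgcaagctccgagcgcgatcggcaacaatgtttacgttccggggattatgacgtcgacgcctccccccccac
Ezh2: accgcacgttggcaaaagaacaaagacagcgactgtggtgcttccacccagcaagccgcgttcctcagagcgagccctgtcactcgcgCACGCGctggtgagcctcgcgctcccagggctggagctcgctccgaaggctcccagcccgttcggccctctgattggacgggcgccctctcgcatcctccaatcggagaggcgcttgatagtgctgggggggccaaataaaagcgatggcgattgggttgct
Suz12: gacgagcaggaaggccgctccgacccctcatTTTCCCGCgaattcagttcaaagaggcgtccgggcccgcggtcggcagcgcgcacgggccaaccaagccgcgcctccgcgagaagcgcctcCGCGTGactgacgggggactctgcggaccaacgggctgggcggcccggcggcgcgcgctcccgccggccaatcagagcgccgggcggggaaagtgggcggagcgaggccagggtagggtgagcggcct
The motifs were the E-box CACGTG, to which Myc binds with its partner Max, its variant CACGCG, and the E2F motifs TTTGGCGC and TTTCCCGC; no match overlapped another in the members' windows. They were chosen with the members' results known. All 10 members had at least 1 window, 15 in all, of 32851 windows in the RefSeq table. CACGTG was in no member's window and in 6.02% of all windows. CACGCG was in a window of 5 members (Ezh2, Suz12, Jarid2, Ring1 and Cbx7) and in 7.62% of all windows. TTTGGCGC was in no member's window and in 0.417% of all windows, and TTTCCCGC was in that of Suz12 and in 0.895% of all windows. The printed windows held 12 CpG dinucleotides for Eed, 23 for Jarid2, 27 for Kdm2b, 23 for Ezh2 and 37 for Suz12, where the median over all windows was 6. The shares over all windows are per window, while members are counted as genes, some with more than 1 window. Windows of matched CpG content were not compared, so an excess of a motif was not tested. A match here describes letters in a window, not a bound site.

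High cells had more RNA of Eed, Jarid2, Kdm2b and Rnf2 than Low cells, and no member passed the threshold as lower. The ratios of mean signal were 2.50 for Kdm2b, 1.83 for Eed, 1.81 for Jarid2 and 1.33 for Rnf2. The other 6 members, among them the catalytic subunit Ezh2 and the core subunit Suz12, did not pass the threshold. Thus 4 of 10 members were past the threshold in High against Low, where 28.4% of all genes were, and 4 of 10 were higher, where 13.8% of all genes were. The members' median log2 fold change was 0.25, against 0.00 over all 13499 genes. For Medium against Low, 3 members (Kdm2b, Jarid2 and Eed) were higher and none lower, against a background of 12% of all genes past the threshold, 6.14% higher and 5.87% lower. For High against Medium, 0 of 10 members passed the threshold with limma, against a background of 0.407% of all genes (0.0815% higher and 0.326% lower), and 2 members and 1468 genes had an unadjusted p under 0.05. edgeR and DESeq2 on the recovered reads also called 0 members in High against Medium. The 3 comparisons share libraries, so their values are given side by side and not as independent results.

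Among the PRC2 core genes, Eed, which binds trimethylated H3 lysine 27 and stimulates the enzyme, differed most. Eed signal was 282, 305 and 296 in High, 265, 248 and 226 in Medium and 154, 173 and 154 in Low. The ranges of the 3 populations were separate, with every High library above every Medium library and every Medium library above every Low library. Means were 294 ± 11.5 in High, 246 ± 19.4 in Medium and 160 ± 10.9 in Low (SD, n = 3 each). The log2 fold change was 0.87 (SE 0.09, limma adjusted p = 0.000103) for High against Low and 0.61 (adjusted p = 0.00288) for Medium against Low. For High against Medium it was 0.26 (95% interval 0.07 to 0.45), and the adjusted p of 0.275 missed the threshold.

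Ezh2, the methyltransferase, showed the opposite order of means. Its signal was 167, 165 and 158 in High, 183, 158 and 165 in Medium and 182, 172 and 177 in Low. All 3 High libraries lay below all 3 Low libraries, while Medium overlapped both. For High against Low the log2 fold change was -0.12 (95% interval -0.29 to 0.05, limma adjusted p = 0.277). After quantile normalization it was -0.23 with an adjusted p of 0.0304, so this call depended on the scaling. Suz12, the scaffold that holds the core together, had 282, 248 and 265 in High, 320, 262 and 281 in Medium and 294, 237 and 255 in Low. These ranges overlapped between all populations. For High against Low the log2 fold change of Suz12 was 0.02 (95% interval -0.22 to 0.26, adjusted p = 0.91), with a sign that depended on the scaling.

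The proportions of RNA among the 3 core genes were also compared within each library, where the scaling between libraries cancels. The ratio of Eed to Ezh2 RNA, per kilobase of transcript and within each library, was 2.27, 2.50 and 2.53 in High, 1.95, 2.11 and 1.85 in Medium and 1.14, 1.35 and 1.18 in Low. The ratio of Eed to Suz12 was 2.11, 2.60 and 2.36 in High, 1.75, 2.00 and 1.70 in Medium and 1.10, 1.54 and 1.28 in Low. High and Low did not overlap in either ratio. On the log2 scale High exceeded Low by 1.0 for Eed to Ezh2 and by 0.86 for Eed to Suz12. An exact two-sided permutation test gave p = 0.1 for each, the smallest that 3 libraries against 3 allow. Both ratios were chosen after the members' values were seen, so these p-values are descriptive.

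**Figure D1:**
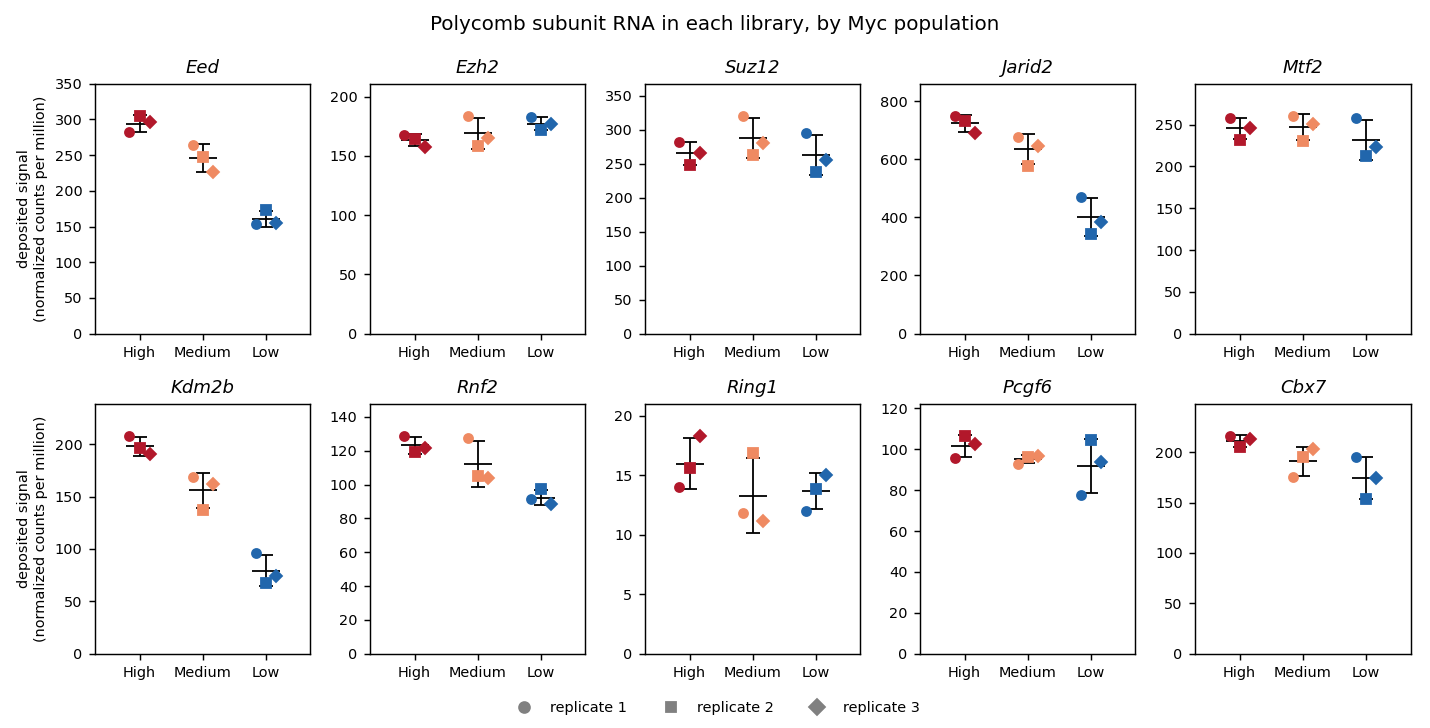
Deposited signal (normalized counts, scale close to CPM) of each of the 10 genes, by population, with 1 point per library, the marker shape for the replicate number, and bars for the mean and SD of 3 libraries. Eed, Jarid2 and Kdm2b step down from High through Medium to Low without overlap, while Suz12, Mtf2, Ring1 and Pcgf6 overlap between populations.

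The accessory subunits Jarid2 and Mtf2 belong to alternative forms of PRC2. Jarid2, which recruits PRC2 and recognises ubiquitylated H2A, had 748, 732 and 691 in High, 678, 578 and 647 in Medium and 472, 344 and 384 in Low. No population overlapped another. Its mean was 724 ± 29.5 in High, 634 ± 51.0 in Medium and 400 ± 65.5 in Low (SD, n = 3 each). The log2 fold change was 0.87 (SE 0.12, limma adjusted p = 0.000707) for High against Low, 0.67 (adjusted p = 0.00797) for Medium against Low and 0.19 (adjusted p = 0.659) for High against Medium. Jarid2 has the longest transcript of the 10 genes, 8353 nt, and corrected for transcript length its log2 fold change was 0.64 for High against Low and 0.38 for Medium against Low (adjusted p = 0.00272). Mtf2, a Polycomb-like protein that binds unmethylated CpG DNA, had 258, 232 and 246 in High, 260, 230 and 251 in Medium and 258, 213 and 223 in Low. These ranges overlapped, and the log2 fold change for High against Low was 0.09 (95% interval -0.12 to 0.30, adjusted p = 0.51).

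In PRC1, the largest difference was in Kdm2b, whose CxxC domain binds unmethylated CpG islands and brings variant PRC1 to them. Kdm2b signal was 207, 196 and 190 in High, 169, 137 and 162 in Medium and 95.8, 67.3 and 74.4 in Low. No population overlapped another. The means were 198 ± 8.73 in High, 156 ± 16.6 in Medium and 79.2 ± 14.8 in Low (SD, n = 3 each). The log2 fold change was 1.33 (SE 0.13, limma adjusted p = 0.000103) for High against Low and 0.98 (adjusted p = 0.00231) for Medium against Low, and 1.25 and 0.86 in the same comparisons after correction for transcript length. For High against Medium it was 0.35 with an adjusted p of 0.348, and 0.39 with an adjusted p of 0.0215 after correction for transcript length. Kdm2b lies on the minus strand at chr5:122870665-122989823 (GRCm38), and its exons share 627 bases with those of Rnf34 on the opposite strand. Whether the authors counted by strand is not given in the sources used here. Rnf34 differed little, with a log2 fold change of -0.03 (adjusted p = 0.835) for High against Low and 52.1 to 61.6 signal in all 9 libraries.

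The H2A ubiquitin ligases Rnf2 (RING1B) and Ring1 (RING1A) are alternative catalytic subunits. Rnf2 had 128, 119 and 122 in High, 128, 105 and 104 in Medium and 91.3, 97.1 and 88.4 in Low. High lay above Low in every library and Medium lay between, overlapping High. Means were 123 ± 4.79 in High, 112 ± 13.4 in Medium and 92.3 ± 4.44 in Low (SD, n = 3 each). The log2 fold change was 0.41 (SE 0.09, limma adjusted p = 0.00986) for High against Low and 0.27 (adjusted p = 0.0836) for Medium against Low. After transcript length correction Rnf2 was at 0.29 for Medium against Low (adjusted p = 0.0327). It also passed there with replicate number as a block (adjusted p = 0.0354) and with array weights (adjusted p = 0.00421). Of all genes, 20.3%, 27.1% and 52.2% were called in these settings, in that order, against 12%. Exons of Rnf2 share 158 bases with those of Trmt1l on the opposite strand, which had a log2 fold change of -0.26. Ring1, the paralogue, had the lowest signal of the members, with 14.0, 15.6 and 18.3 in High, 11.8, 16.9 and 11.2 in Medium and 12.0, 13.9 and 15.0 in Low. The ranges overlapped, and the 95% interval of the High against Low log2 difference, -0.16 to 0.58, included the value found for Rnf2. The ratio of Rnf2 to Ring1 RNA per kilobase was 7.31, 6.07 and 5.31 in High, 8.61, 4.95 and 7.41 in Medium and 6.05, 5.59 and 4.69 in Low. The populations overlapped in this ratio (log2 difference of High minus Low 0.19, exact two-sided permutation p = 0.4). Between libraries of the same number it was higher in High in 3 of 3 pairs, by 0.12 to 0.27 on the log2 scale (paired exact two-sided p = 0.25, the smallest that 3 pairs allow).

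The remaining PRC1 members mark different forms of the complex. Cbx7, the chromodomain subunit that canonical PRC1 of ES cells uses to read H3 lysine 27 methylation, had 216, 205 and 214 in High, 175, 195 and 203 in Medium and 195, 153 and 175 in Low. High lay above Low in every library. The log2 fold change of 0.28 (95% interval 0.06 to 0.50) missed the threshold for High against Low, with a limma adjusted p of 0.0588, but passed it with replicate number as a block, with an adjusted p of 0.0385. It also passed without Low replicate 1, where the log2 fold change was 0.37 (adjusted p = 0.0077), and after transcript length correction it was 0.17, with an adjusted p of 0.128 without the replicate block and 0.0443 with it. Cbx7 was at 0.25 (adjusted p = 0.144) with libraries rescaled to a common total and at 0.16 (adjusted p = 0.271) after quantile normalization. Pcgf6, which defines the variant complex that holds Mga and L3mbtl2, had 95.7, 106 and 103 in High, 92.9, 96.4 and 96.5 in Medium and 77.7, 104 and 93.5 in Low. The Low libraries spread over the range of the other populations, and the log2 fold change for High against Low was 0.15 (95% interval -0.08 to 0.39, adjusted p = 0.31). With length correction and the block together Pcgf6 was at 0.19 (adjusted p = 0.0456). The settings in which Cbx7 or Pcgf6 passed called more of all genes than the 28.4% called without them. The share was 38.8% with the block, 43.1% without Low replicate 1 and 44.6% with length correction and the block. It was 58.2% with array weights, where Cbx7 (adjusted p = 0.00148) and Pcgf6 (adjusted p = 0.0385) both passed. DESeq2 called hardly more of all genes, 28.7%, and had 5 members higher, the added one being Cbx7 or Pcgf6. The 6 members whose High and Low libraries did not overlap were Ezh2, Eed, Jarid2, Rnf2, Cbx7 and Kdm2b, where 41.6% of all genes did not overlap. Thus 5 of 10 members were higher in High without overlap, where 20.2% of all genes were. In High against Medium the 4 members without overlap were Eed, Jarid2, Cbx7 and Kdm2b, all higher, where 20.1% of all genes did not overlap and 9.34% were higher without overlap. In Medium against Low they were Eed, Jarid2, Rnf2 and Kdm2b, all higher, where 29.6% of all genes did not overlap and 14.5% were higher without overlap.

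**Figure D2:**
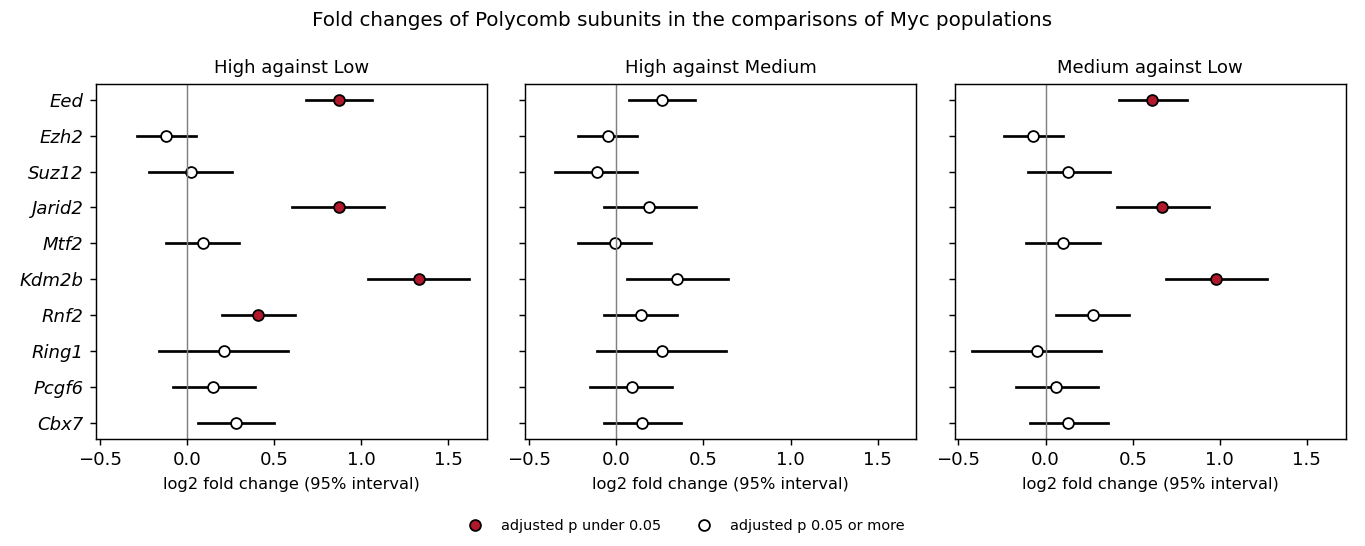
Log2 fold change (x axis) of each of the 10 genes for High against Low, High against Medium and Medium against Low, with 95% intervals from limma on 9 libraries; filled points have an adjusted p under 0.05. Kdm2b (1.33), Eed (0.87), Jarid2 (0.87) and Rnf2 (0.41) are filled for High against Low, none for High against Medium and the first 3 for Medium against Low.

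The Medium mean lay nearer to that of High than to that of Low for the 3 members with the largest differences. Medium exceeded the mean of High and Low by 0.32 for Kdm2b, 0.24 for Jarid2 and 0.18 for Eed on the log2 scale. After transcript length correction the departure was 0.23 for Kdm2b, 0.06 for Jarid2 and 0.25 for Eed. The unadjusted limma p was 0.019 for Kdm2b, 0.0414 for Jarid2 and 0.0377 for Eed, and the adjusted p was 0.709 for each. In all, 0 of 10 members passed the threshold for this departure with limma, against a background of 0% of all genes, and 3 members and 766 genes had an unadjusted p under 0.05. edgeR and DESeq2 called 0 members, while DESeq2 called 21 genes. With array weights Kdm2b (0.38, adjusted p = 0.0285) and Jarid2 (0.28, adjusted p = 0.0365) passed, where 8.54% of all genes did.

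Signal per kilobase of the longest annotated transcript (GENCODE M21) orders the members by level. Over all 9 libraries it averaged 113 for Eed, 70.2 for Jarid2, 62.1 for Suz12, 60.9 for Ezh2, 59.5 for Mtf2, 34.1 for Rnf2, 34.0 for Pcgf6, 31.8 for Cbx7, 27.9 for Kdm2b and 5.61 for Ring1. Neighbours in this order overlapped in their ranges over the 9 libraries, except Mtf2 with Rnf2 and Kdm2b with Ring1. The order depends on the transcript used. With the median length of the coding transcripts Mtf2 came first at 310.2 per kilobase and Cbx7 came second at 270.9, while Kdm2b and Ring1 stayed last. The 3 PRC2 core genes had means per kilobase of 142 (Eed), 58.5 (Ezh2) and 60.6 (Suz12) in High and of 77.6, 63.6 and 59.9 in Low, in the same order of genes.

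Over the 9 libraries, Kdm2b and Jarid2 varied together most closely among the pairs of members, with a Pearson correlation of log2 values of 0.996. Eed correlated with Kdm2b and with Rnf2 at 0.93, and Suz12 with Mtf2 at 0.90. Ezh2 had negative correlations with 7 of the other 9 members, the lowest being -0.67 with Ring1. These values describe libraries that share the sort and, in part, the length trend, and they carry no p-value. Of all named genes above the 25th percentile of mean signal, Myrf, a transcription factor of myelin-forming cells, was most like Kdm2b at 0.997, followed by Jarid2 itself at 0.996 and Cers6, a ceramide synthase, at 0.994. For Eed the most similar genes were Hhex, a homeobox transcription factor (0.993), Enox1 (0.990) and Tmem39a (0.990). For Jarid2 they were Jade2, Stat3 (the transcription factor through which LIF acts) and Akap2, each at 0.997. Enox1 signal was 110, 115 and 111 in High, 90.9, 81.9 and 81.1 in Medium and 36.0, 38.1 and 33.5 in Low, which is the same order of populations as for Eed.

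The other PRC2 subunits moved in both directions. All 11 listed genes were measured, and for High against Low 1 was higher, 4 were lower and 6 did not pass the threshold. Their median log2 fold change was -0.07 against 0.00 over all genes, of which 13.8% were higher and 14.6% lower. The count of lower subunits was 2 without High replicate 1, High replicate 3 or Low replicate 3. The count of higher subunits was 2 without Low replicate 1 or with replicate number as a block. The share of all genes called was 19%, 19.5%, 17%, 43.1% and 38.8% in these settings, in that order, against 28.4%. The gene listed as E130012A19Rik (Epop), whose product competes with Jarid2 for its place on PRC2, had 296, 348 and 375 in High, 259, 286 and 239 in Medium and 159, 184 and 172 in Low. High and Low did not overlap, and its log2 fold change was 0.98 (limma adjusted p = 0.000204). Phf19, a Polycomb-like protein of the same family as Mtf2, had 31.9, 31.6 and 28.8 in High, 45.8, 44.0 and 48.5 in Medium and 87.2, 67.2 and 72.6 in Low. It fell by 1.26 on the log2 scale (adjusted p = 4.06e-05), the largest decrease among the subunits tested, while its relative Mtf2 did not pass the threshold. Rbbp7, a histone-binding subunit, had a log2 fold change of -0.43 (adjusted p = 0.0103), and Aebp2, an accessory subunit, of -0.27 (adjusted p = 0.0224). The gene listed as AU022751 (Ezhip), an inhibitor of PRC2, had -0.41 with an adjusted p of 0.0445, a call lost on leaving out most single libraries (highest adjusted p 0.155, without High replicate 1). Ezh1, the paralogue of Ezh2, did not pass. The ratio of Ezh2 to Ezh1 per kilobase was 7.63, 9.07 and 8.47 in High, 8.65, 8.41 and 8.52 in Medium and 8.04, 10.9 and 10.7 in Low. These ranges overlapped (log2 difference of High minus Low -0.23, exact two-sided permutation p = 0.3), and the ratio was lower in High in 3 of 3 pairs of the same number, by -0.33 to -0.07 (paired exact two-sided p = 0.25).

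Of 30 other PRC1 subunits 27 were measured, and for High against Low 7 were higher, 7 lower and 13 did not pass. Their median log2 fold change was -0.11, against 0.00 over all genes, of which 13.8% were higher and 14.6% lower. Phc1, a polyhomeotic subunit of canonical PRC1, had 670, 666 and 641 in High, 552, 543 and 612 in Medium and 479, 408 and 457 in Low. No population overlapped another, and its log2 fold change was 0.56 (limma adjusted p = 0.0014). Mga and Bcorl1, subunits of variant complexes, had log2 fold changes of 1.03 (adjusted p = 0.0205) and 1.06 (adjusted p = 0.037). Both calls were lost without High replicate 1, with adjusted p-values of 0.0757 and 0.131, and also without Low replicate 2 or Low replicate 3. The call of Bcorl1 was lost as well without High replicate 2, High replicate 3 or Medium replicate 3. It was also lost with libraries rescaled to a common total, with only High and Low in the fit, and with edgeR. After length correction Mga was at 0.60 and Bcorl1 at 0.88. The subunits with the largest decreases were Pcgf5 at -0.99 (adjusted p = 0.000566), Bmi1 at -0.88 (adjusted p = 0.001) and Yaf2 at -0.78 (adjusted p = 0.00373). Pcgf5 and Bmi1 (Pcgf4) are relatives of Pcgf6 and, like it, occupy the position beside Ring1 or Rnf2. Pcgf2, the relative that ES cells use in canonical PRC1, was higher by 0.27 (adjusted p = 0.0427). The count of higher subunits was 3 without High replicate 1 and 4 without High replicate 2 or Low replicate 3, and the count of lower ones was 11 after transcript length correction. In these settings 19%, 18.6%, 17% and 38.2% of all genes were called, in that order, against 28.4%. The ratio of Cbx7 to the summed Cbx2 and Cbx6, alternative chromodomain subunits, was 2.21, 2.78 and 2.78 in High, 1.69, 2.28 and 2.38 in Medium and 1.68, 1.91 and 1.98 in Low. High and Low did not overlap, with a log2 difference of High minus Low of 0.47 (exact two-sided permutation p = 0.1, the smallest possible).

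**Figure D3:**
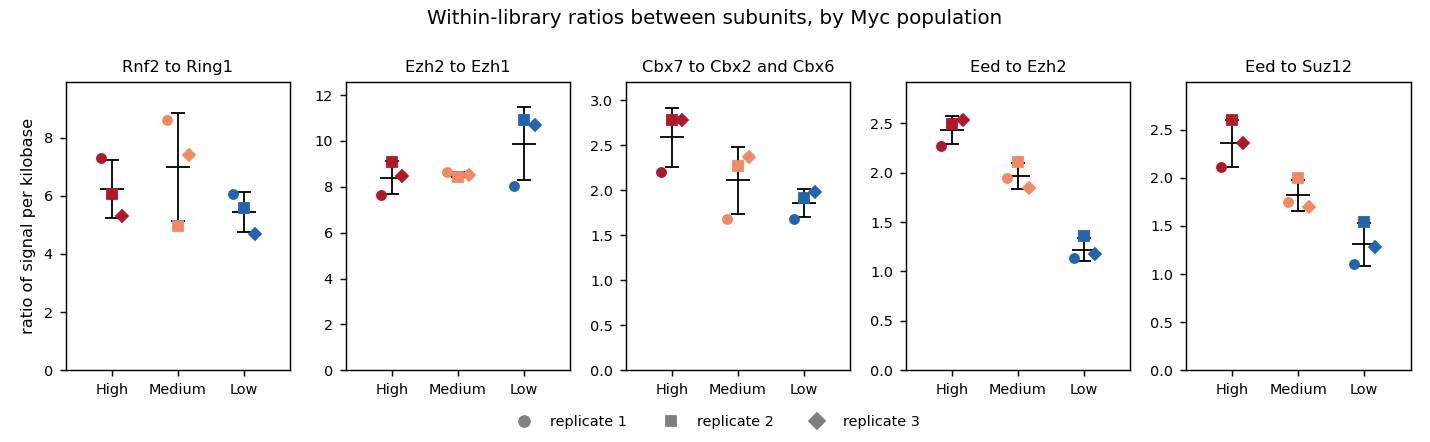
Ratio of signal per kilobase between subunits within each library (y axis, linear from 0), by population, with 1 point per library, the marker shape for the replicate number, and bars for the mean and SD of 3 libraries. High and Low are apart for Eed to Ezh2, Eed to Suz12 and Cbx7 to Cbx2 and Cbx6, and overlap for Rnf2 to Ring1 and Ezh2 to Ezh1.

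Enzymes that oppose Polycomb, namely methyltransferases of H3 lysine 4 and 36 with their partners, H3 lysine 27 demethylases and H2A deubiquitylases, were also listed. All 22 were measured, with 6 higher, 0 lower and 16 not past the threshold for High against Low with limma. Their median log2 fold change was 0.43, against 0.00 over all genes, of which 13.8% were higher and 14.6% lower. The largest differences were in Setd1b at 1.41 (adjusted p = 0.0144), Kdm6b, the inducible H3 lysine 27 demethylase, at 1.20 (adjusted p = 0.00284) and Kmt2c at 1.07 (adjusted p = 0.0198). Kdm6b had 57.8, 45.5 and 46.7 in High, 52.9, 34.8 and 44.6 in Medium and 28.4, 15.6 and 21.3 in Low. High and Low did not overlap for Kdm6b. The calls of Setd1b and Kmt2c were lost without High replicate 1, with adjusted p-values of 0.0535 and 0.0729, and without Low replicate 3. That of Kmt2c was lost as well without Low replicate 2, where it was at 0.82 (adjusted p = 0.055). The count of 6 was 2 without High replicate 1 or Low replicate 3, 3 without Low replicate 2, 15 without Low replicate 1 and 11 with replicate number as a block. The share of all genes called moved as well from 28.4%. It was 19% without High replicate 1, 17% without Low replicate 3 and 22.3% without Low replicate 2. It was 43.1% without Low replicate 1, 38.8% with the block and 38.2% after transcript length correction. After that correction 10 of the enzymes were higher and 2 lower, with Setd1b at 1.16, Kdm6b at 1.05 and Kmt2c at 0.60. Many of these genes are long, and the part of the length trend in their differences was not tested further.

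**Figure D4:**
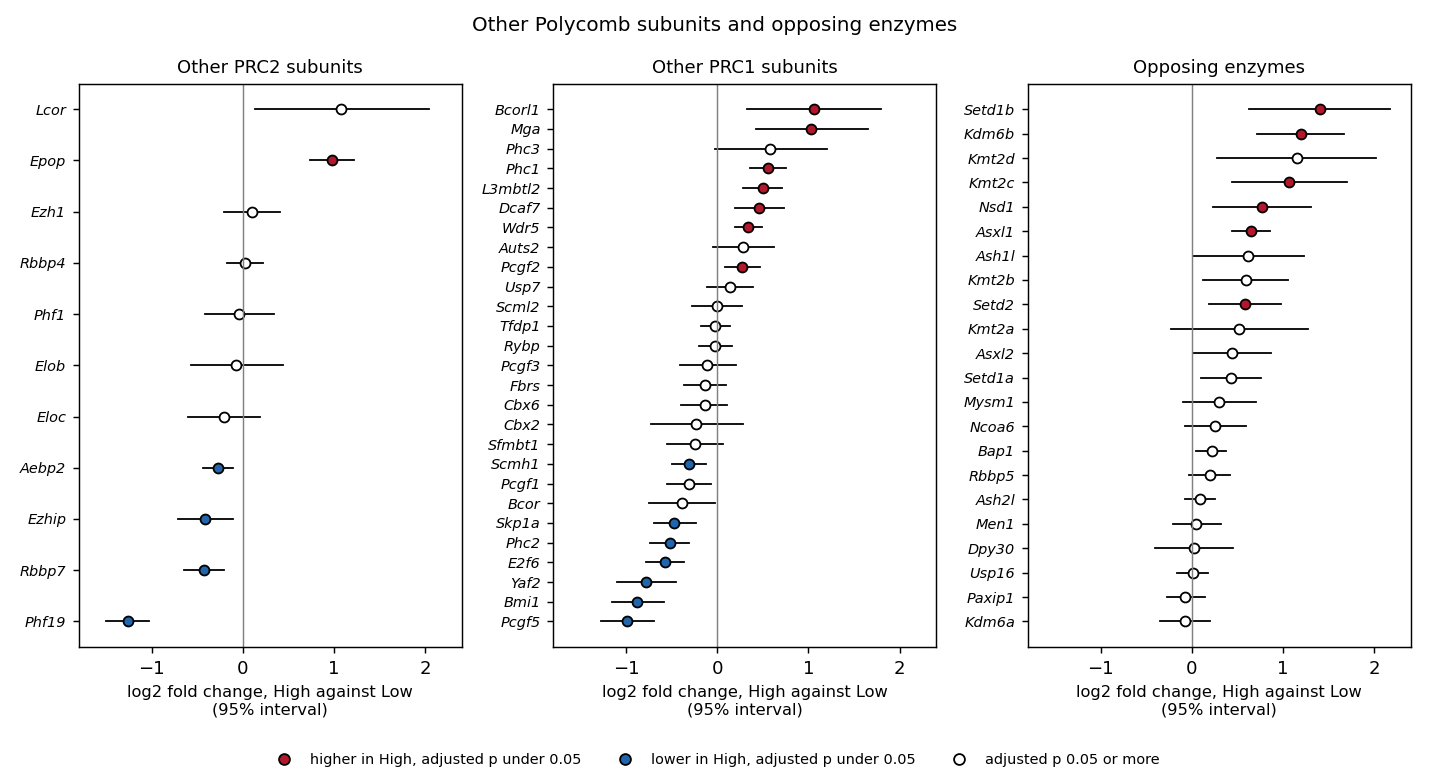
Log2 fold change of High against Low (x axis) with 95% intervals from limma for the other PRC2 subunits, the other PRC1 subunits and the opposing enzymes; red marks genes higher and blue genes lower in High at an adjusted p under 0.05. Epop (0.98) and Phf19 (-1.26) are the called PRC2 genes farthest from 0, and the opposing enzymes hold 6 red and no blue genes.

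Genes known as Polycomb targets in ES cells were mostly not among the names in the table, so 28 of 98 listed genes could be tested. Of these 12 did not pass the threshold for High against Low. Another 6 were higher and 10 lower, where 13.8% of all genes were higher and 14.6% lower. This count depends on the filter on low values: Msx2 averaged 0.421 in High, 0.496 in Medium and 1.26 in Low and Nkx2-9 averaged 0.245, 0.457 and 1.28, so both entered only through Low. With a filter at 5 CPM 2 were lower. The highest were Sox1 at 1.67 (limma adjusted p = 5.1e-06), Sox7 at 1.41 (adjusted p = 0.000598) and Foxd3 at 1.36 (adjusted p = 0.000255), all transcription factors. The lowest were the signalling genes Wnt7b at -2.90 (adjusted p = 1.12e-06) and Fgf15 at -1.81 (adjusted p = 0.000522), and the transcription factor Gata2 at -1.31 (adjusted p = 0.000548). Sox7 averaged 0.898 in Low, and Fgf15 averaged 0.967 and Gata2 1.59 in High, so the sizes of these fold changes are uncertain. Over the alternative settings they ranged from 0.63 to 2.18 for Sox7, -2.64 to -0.85 for Fgf15 and -1.74 to -0.64 for Gata2. Target genes that the table does not name are not covered by the counts of targets given here.

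Cell cycle genes were listed because the E2F factors that drive replication genes are also known to activate Ezh2 and Eed. Of 30 DNA replication genes, 2 were higher, 6 lower and 22 not past the threshold for High against Low. Their median log2 fold change was -0.03, against 0.00 over all genes, of which 13.8% were higher and 14.6% lower. Uhrf1 (0.38, limma adjusted p = 0.0133) and Mcm10 (0.30, adjusted p = 0.0191) were higher, and Ccne2 (-0.63), Rfc3 (-0.56) and Rrm2 (-0.52) were the lowest. Of 20 genes of G2 and mitosis, 3 were higher (Top2a 0.54, Bub1b 0.38 and Aurkb 0.25), 1 was lower (Ccnb2 -0.38) and 16 did not pass. The calls of Uhrf1, Mcm10 and those 4 genes of G2 and mitosis were lost on leaving out single libraries, Low replicate 3 among them. Without Low replicate 1, 6 replication genes and 6 genes of G2 and mitosis were higher. With replicate number as a block 4 replication genes and 8 genes of G2 and mitosis were higher. The share of all genes called was 17% without Low replicate 3, 43.1% without Low replicate 1 and 38.8% with the block. With all libraries and no block it was 28.4%.

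Markers of other cell types moved with the sort beside the members. Over all genes 13.8% were higher and 14.6% lower for High against Low. Of 14 trophoblast markers 11 were measured, with 1 higher, 9 lower and 1 not past the threshold for High against Low, and their summed signal was 161 to 174 in High, 248 to 270 in Medium and 500 to 612 in Low. Tfap2c, Rhox6 and Rhox9 held most of this sum, with Tfap2c at 93.0, 97.9 and 94.9 in High, 145, 138 and 136 in Medium and 209, 219 and 217 in Low. Rhox9 fell by 3.51 on the log2 scale (limma adjusted p = 1.12e-06), Rhox6 had a log2 fold change of -3.23 (adjusted p = 1.84e-06) and Krt7 of -2.39 (adjusted p = 2.49e-06), while Plet1 was higher by 0.60 (adjusted p = 0.00415). Of 12 primitive endoderm markers 7 were measured, 4 higher (Lama1 1.55, Sox7 1.41, Sparc 0.95 and Col4a1 0.59), 1 lower (Dab2 -1.13) and 2 not past, with sums of 611 to 648 in High, 551 to 562.5 in Medium and 354 to 434 in Low. Sparc held the largest part of the endoderm sums, averaging 428 in High, 343 in Medium and 221 in Low. The defining markers Cdx2, Elf5, Gata4, Gata6 and Sox17 are not among the names in the authors' table. Of 8 primed epiblast markers 1 was higher (Foxd3, also a listed target), 4 lower and 3 not past, Fgf5 (-1.56), Otx2 (-1.48) and Fgf8 (-0.83) being the lowest. Fgf8 averaged 0.506 in High, 0.540 in Medium and 1.70 in Low, so it passed the filter on low values only through Low. Sums over the primed epiblast markers were 818 to 904 in High, 827 to 924 in Medium and 649 to 783 in Low. Dnmt3b held most of these sums, averaging 739 in High, 751 in Medium and 599 in Low, so they say little about the lower markers. Of 10 ES cell markers 4 were higher, 0 lower and 6 not past with limma, led by Tdgf1 (0.70), Esrrb (0.54) and Zfp42 (0.25), with sums of 6530 to 7279 in High, 6209 to 6833 in Medium and 5382 to 6897 in Low. Of 12 fibroblast and feeder markers 10 were measured, 1 higher (Thy1 0.69), 2 lower (Tagln -0.99 and Col6a1 -0.69) and 7 not past, with sums of 45.5 to 63.8 in High, 63.9 to 88.6 in Medium and 55.5 to 71.9 in Low. With replicate number as a block 3 primed epiblast and 2 fibroblast markers were higher and 1 ES cell marker was lower. Without Low replicate 1, 3 primed epiblast and 2 fibroblast markers were higher and 1 fibroblast marker was lower. Without High replicate 2, High replicate 3, Medium replicate 3 or Low replicate 3, 2 ES cell markers were higher. In these settings 18.6%, 19.5%, 24.5% and 17% of all genes were called, in that order. The share was 38.8% with the block and 43.1% without Low replicate 1, against 28.4% with all libraries and no block. The calls of Zfp42 and Col6a1 were lost without Low replicate 3, with adjusted p-values of 0.119 and 0.0713. That of Zfp42 was lost as well without High replicate 1, High replicate 2, High replicate 3 or Medium replicate 3. It was also lost with a constant prior variance and with only High and Low in the fit. The call of Col6a1 was lost as well without High replicate 2, High replicate 3 or Low replicate 1. Both were lost after quantile normalization. The part of these cell-type markers in the differences of Eed, Jarid2, Kdm2b and Rnf2 was not tested.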

How the data were processed

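The authors deposited a table of 13499 mouse genes with Ensembl identifiers, names and a signal for each of 9 libraries, normalized counts close in scale to CPM. Cutadapt, Picard, limma and RSEM 1.17 are listed without a role in the submitters' processing notes. The build, the annotation and the strand setting were not given in the sources used here. In 100% of values the deposited signal equalled a whole number of reads times a constant of the library, within 0.001 read. The recovered reads, scaled by TMM in edgeR, gave the deposited values back to rounding error, so an alternative with TMM factors equals the main scaling. Column totals ran from 953055 to 1026948. 85 genes without a name, with 1.71% to 2.53% of the signal, stayed in the tests.

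Populations were taken from the labels, and the 10 members from the gene names. The members, the lists and the tests were chosen with earlier results of these data known. Log2(signal + 1 CPM of each library's own total) was tested in limma 3.58.1 (R 4.3.3, trended prior variance), population as the only term and genes at 1 CPM or more in at least 3 libraries, which kept all 13499. Ratios within libraries were tested with exact permutation in SciPy 1.17.1. Alternatives, 24 for each comparison, covered the pseudocount, filter, scaling, variance model, weights, replicate block, transcript length correction (lowess span 0.3), leaving out each library, and edgeR 4.0.16 and DESeq2 1.42.0 on the recovered reads. The edgeR quasi-likelihood test called 3665 genes for High against Low, where limma called 3832. Scripts were tested on simulated data. The ratio of Cbx7 to other Cbx genes was computed with Cbx2 and Cbx6.

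From the other lists, the 3 highest and 3 lowest fold changes past the threshold are named, with further members, chosen after their values were seen, where a sentence turns on them. For the 3 members with the smallest p, the 3 most correlated named genes above the 25th percentile of mean signal are given, predicted genes passed over. GENCODE M21 (GRCm38) gave transcript lengths and coordinates, with 13412 identifiers (99.36%) found in it. Promoter windows are from RefSeq on GRCm38.p6.

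Replicate numbers are shared between populations in the labels. Between High and Low, deviations from the population means correlated between libraries of the same number at 0.53, 0.26 and 0.18, each over 0.1, so results with replicate number as a block are given where they change a member's call or a list's count by over 1.5 times. The crossed pairs High 3 with Low 2 (0.31) and High 2 with Low 3 (0.12) also passed 0.1. The condition was not met for High and Medium (0.35, 0.17 and -0.04) or for Medium and Low (0.24, 0.43 and -0.11).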

Additional observations from a re-analysis of the deposited data

How the results depend on the processing

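The calls of Kdm2b, Eed, Jarid2 and Rnf2 for High against Low passed the threshold in all 24 alternatives. Their log2 fold changes ranged from 1.22 to 1.47 for Kdm2b, 0.76 to 0.96 for Eed, 0.64 to 0.99 for Jarid2 and 0.31 to 0.45 for Rnf2, whose highest adjusted p was 0.0484, without Low replicate 3. The calls of Kdm2b, Eed and Jarid2 for Medium against Low also passed in all 24, with a highest adjusted p of 0.0458 for Jarid2. The count of members called for High against Low was 4 to 7 over the alternatives and 4 to 5 on leaving out single libraries. It was 0 to 2 over the alternatives for High against Medium and 3 to 6 for Medium against Low. With array weights, estimated gene by gene because the joint estimate did not converge, 7 members were called for High against Low (6 higher, and Ezh2 lower), 2 for High against Medium, 6 for Medium against Low and 2 (Kdm2b and Jarid2) for the departure of Medium, but the shares of all genes called were 58.2% for High against Low, 5.93% for High against Medium, 52.2% for Medium against Low and 8.54% for the departure. After transcript length correction 1 member (Kdm2b) was called for High against Medium, and 2 with the replicate block as well: Jarid2 at 0.26 (adjusted p = 0.0302) and Kdm2b at 0.39 (adjusted p = 0.0114). The shares of all genes called there were 2.29% without the block and 3.74% with it. The cause of these changes was not tested.

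Signs that reversed belonged to values near 0 that were not called. Suz12 for High against Low was -0.01 when libraries were rescaled to a common total, -0.10 after quantile normalization and -0.01 after length correction with or without the block, and ranged from -0.05 to 0.11 without single libraries. Quantile normalization gave -0.03 for Mtf2 in High against Low and -0.01 for Pcgf6 in Medium against Low. Length correction, with or without the block, gave 0.01 for Mtf2 in High against Medium, and 0.02 for Ring1 and -0.04 for Cbx7 in Medium against Low. Leaving out single libraries gave -0.06 to 0.03 for Mtf2 and -0.09 to 0.01 for Ezh2 in High against Medium, -0.22 to 0.06 for Ring1 and -0.05 to 0.16 for Pcgf6 in Medium against Low, and -0.03 to 0.12 for Rnf2 in the departure of Medium.

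With replicate number as a block, 5 members and 5239 genes (38.8%) were called for High against Low (Cbx7 was added), and 0 members for High against Medium and 4 for Medium against Low, where Rnf2 had an adjusted p of 0.0354. The block changed no other member's call. The genes called over the whole table moved more: with the block 203 for High against Medium, where the fit without it called 55, and 3656 for Medium against Low, where it called 1621. Leaving out single libraries gave 2266 (without Low replicate 3) to 5757 (without Low replicate 1) for High against Low and 2498 without High replicate 2, 11 to 208 for High against Medium and 497 to 5060 for Medium against Low. Length correction gave 309 and DESeq2 260 for High against Medium, and a fit of those populations alone gave 669 for Medium against Low. Rescaling each library to the same total gave 1481 higher and 2213 lower genes for High against Low, where the authors' scaling gave 1866 and 1966. No filter and TMM gave the values of the report by construction. Read depth limits Ring1 most, with 155 to 227 reads per library.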
